A study of Homo sapiens with 12 samples.

Results

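The untreated SDS22-degron line was compared with the untreated parental line from which it was made. The members are libraries, assigned to the lines by their labels: 3 untreated SDS22-degron libraries and 3 untreated parental libraries, 6 of the 12 libraries in the series. Both lines are HCT116, a human colorectal carcinoma cell line, and both carry the Tet-OsTIR1 transgene at the AAVS1 locus, which makes the plant F-box protein TIR1 when doxycycline (Dox) is added. In the SDS22-degron line, the SDS22-encoding PPP1R7 alleles were extended at their 3′ coding end with a mini auxin-inducible degron (mAID) and the fluorescent protein mClover, together with a neomycin or hygromycin resistance cassette. Neither Dox nor the auxin IAA was added to these 6 cultures, so no degradation of the tagged protein was induced. The other 6 libraries are of the same lines that had received Dox (2 µg/ml) together with IAA (500 µM) for 48 h. They serve here to ask whether a difference between the untreated lines was also present in libraries whose levels do not enter that difference. All 12 libraries were fitted together, so the treated ones also entered the gene filter, the normalization and the estimate of the spread. The SDS22-degron line was grown from colonies isolated under drug selection, while the parental line had not gone through this selection. The tag, the cassettes, the selection and the origin from isolated cells therefore all go with the line and cannot be told apart. The labels call the libraries biological replicates without naming separate cultures, so p-values measure the spread between these libraries.

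SDS22 is a leucine-rich repeat protein that binds the catalytic subunit of protein phosphatase-1 (PP1) and takes part in the maturation of newly made PP1. PP1 removes phosphate from serine and threonine residues, and its many regulatory subunits direct it to substrates in cell division, adhesion and metabolism. A degron line is meant to behave like its parent until the degradation of the tagged protein is induced, and the difference between the untreated lines is the baseline on which a depletion experiment starts.

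The place of the tag is shown by the guide RNA that was used to cut PPP1R7. The guide has 20 bases and occurs in 5 annotated transcripts, all of 1 gene, PPP1R7. On GRCh37, the build of the annotation used for this match, it lies on the plus strand at chr2:242122210-242122229. In 4 of the 5 transcripts this is the last exon, for example exon 10 of ENST00000234038, and the PAM and the stop codon follow. In the other, ENST00000415769, it is exon 2 of 3, and the bases that follow differ. In the line below, the capitals mark the PAM and the stop codon, which are 3 bases apart.
PPP1R7 guide site: agatcgatgccacgttcgtcAGGttcTGA

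The deposited values are numbers of reads per gene, which were normalized here by the TMM method and are given as CPM, the counts scaled to a common library size. The 3 parental libraries held between 12218784 and 13126815 counts, the 3 SDS22-degron libraries between 13369897 and 14657508. At least 1 count was found for 22596 to 22651 genes in parental libraries and for 23126 to 23408 genes in SDS22-degron libraries. Over all tested genes, Pearson's r of log2 CPM (a description across genes, which are not independent) was 0.991 to 0.995 within a line and 0.977 to 0.981 between the lines. Of 9 markers of colon epithelium and colorectal carcinoma, 6 were expressed well enough to be tested, among them EPCAM, KRT8, KRT18, KRT19, CDX2 and CDH1, and none passed the test in either direction. CDH17 was at 0 in every library, and VIL1 and LGALS4 had at most 3 counts. In a longer list of colon epithelial markers, described below, 5 of 13 tested genes were lower, HNF4A among them, and 2 were higher. Of 16 markers of other cell types, 10 were at 0 in all 6 libraries, among them the blood cell gene PTPRC, the endothelial gene PECAM1 and the erythroid gene HBB. The summed level of the 16 was 11.1 to 14.4 CPM in parental and 14.9 to 16.4 CPM in SDS22-degron libraries, nearly all of it from COL1A1. In bulk RNA, fewer cells that express a gene and less RNA per cell cannot be told apart. Parental library 1 stood apart from the other 2 parental libraries in genes of the stress response of the endoplasmic reticulum. Values of the integrated stress response are given below with and without it. Counts of other lists also changed without it, and several of those are given only with it. Examples are lower genes of cadherins and junctions (13, or 9 without it) and lower ZNF genes (94, or 69).

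The transcript of the tagged gene itself did not differ between the lines beyond the spread of the libraries. PPP1R7 (ENSG00000115685, GRCh38 chromosome 2, 241149576 to 241183652) was at 40.1, 47.7 and 43.2 CPM in the 3 parental libraries and at 40.6, 45.7 and 45.8 CPM in the 3 SDS22-degron libraries. The libraries of the lines overlapped, and the log2 ratio of SDS22-degron to parental was 0.011 with a standard error of 0.0887 (adjusted p = 0.945, edgeR). The sign of this value changed with the processing. PPP1R7 shares sequence with PASK on the other strand, and the strand setting of the counting is not given in the sources used here. The genes of the 3 catalytic subunits of PP1 did not pass either, with log2 fold changes of 0.093 for PPP1CA, -0.16 for PPP1CB and 0.047 for PPP1CC and adjusted p-values of 0.268, 0.263 and 0.702 in the same test. Of 23 tested genes within 1 Mb of PPP1R7, 2 (8.70%) passed, against 28.2% of all tested genes, and their median log2 fold change was 0.028. The 2 were SNED1, a matrix protein gene (0.52, adjusted p = 0.0239 in edgeR), and MTERF4, which codes for a factor of the mitochondrial ribosome (0.25, adjusted p = 0.0341 in edgeR). They overlap each other on opposite strands. The call of SNED1 was lost without SDS22-degron replicate 1 or 3 or without parental replicate 2 (log2 fold changes of 0.38 to 0.47), and that of MTERF4 was lost without SDS22-degron replicate 1 or 2 or without parental replicate 1 or 2 (0.21 to 0.26).

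Over the whole transcriptome, the lines differed at many genes. Of 16657 tested genes, 4698 (28.2%) passed the quasi-likelihood F test of edgeR at a false discovery rate of 0.05, 2198 of them (13.2%) higher and 2500 (15%) lower in SDS22-degron cells. Most of these differences were small, with a median absolute log2 fold change of 0.44 and a smallest one of 0.16. Differentially expressed genes (DEGs), which also had an absolute log2 fold change above 1, numbered 626 (3.76%), 430 higher (2.58%) and 196 lower (1.18%). Among the DEGs, 374 higher and 155 lower genes were protein-coding, 17 and 10 were lincRNA genes and 14 and 10 were antisense genes. The 3 libraries of one line lay wholly above those of the other for 427 of the 430 higher and 193 of the 196 lower DEGs, against 43.5% of all tested genes. The DEGs were chosen from these same libraries, so this separation largely follows from the choice and is no separate evidence. The common biological coefficient of variation was 7.48%, and the standard error of the log2 ratios had a median of 0.11. Tested against an absolute log2 fold change of 1 with glmTreat, 90 genes were higher and 44 lower.

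Of the 12 genes with the lowest log2 fold changes, PCDH7 stood furthest from the parental level. PCDH7 (ENSG00000169851, GRCh38 chromosome 4, 30720415 to 31146805), a protocadherin of cell-cell contacts, was at 173, 151 and 163 CPM in parental libraries and at 1.68, 1.65 and 1.21 CPM in SDS22-degron libraries. These levels lie about 106-fold apart, or -6.73 on the log2 scale (standard error 0.141; adjusted p = 2.43e-16 in edgeR). NRP1, a co-receptor for semaphorins and vascular endothelial growth factor, was at 20.6, 24.1 and 23.6 CPM and 2.33, 2.48 and 2.96 CPM (-3.13, standard error 0.180). SCG2, a granin stored in secretory vesicles, was at 118, 87.4 and 109.8 CPM in parental and 18, 15.6 and 15 CPM in SDS22-degron libraries (-2.7). For each of these 3 genes the lowest parental library was more than 4-fold above the highest SDS22-degron library. MPP7, a scaffold protein of cell junctions and polarity, had 165, 176 and 173 CPM against 41, 41.8 and 43.7 CPM (-2.02, standard error 0.0924).

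Next by role are PDE4B and PRKACB. PDE4B, a cyclic AMP phosphodiesterase, was at 277, 230.5 and 238 CPM in the parental line and at 60.1, 52.1 and 44.5 CPM in the SDS22-degron line (-2.25, standard error 0.103). PRKACB, a catalytic subunit of protein kinase A, was at 221, 207 and 226 CPM and 41, 49.2 and 48.1 CPM (-2.24, standard error 0.0879). In both genes the parental libraries lay far above the others, with adjusted p-values of 2.15e-11 and 3.62e-12 in edgeR. PRKACB shares sequence with the transcript RP11-486G15.1 on the same strand, so that reads could be assigned to either.

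Regulators of transcription and other genes make up the rest of the lowest 12. MKX, the Mohawk homeobox factor, was at 83.5, 63 and 67.4 CPM in parental and 12.8, 17.1 and 13.8 CPM in SDS22-degron libraries (-2.29). NRIP1, a corepressor of nuclear receptors, was at 86.3, 66.8 and 63.7 CPM against 15.1, 19.1 and 18.8 CPM (-2.03), and ZNF91, a zinc finger protein that represses retrotransposons, at 7.60, 10.9 and 7.33 CPM against 2.11, 1.31 and 1.97 CPM (-2.26). The last 3 are SH3BGRL, a small protein with a thioredoxin fold, ARMC4, a gene of motile cilia, and SAMD13. SH3BGRL was at 39.3, 32.6 and 32.1 CPM in parental and 2.11, 1.58 and 1.44 CPM in SDS22-degron libraries (-4.33, standard error 0.156). Log2 fold changes were -2.72 for ARMC4 and -3.0 for SAMD13, which overlaps UOX on the other strand. None of the 12 had overlapping libraries, which the rule for naming them required.

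Among the genes higher in SDS22-degron cells, TENM3 stood at one extreme. This gene (ENSG00000218336, GRCh38 chromosome 4, 182143987 to 182803024) codes for a teneurin, a transmembrane adhesion protein best known from the wiring of neurons. It had 1 count in each of the 3 parental libraries and 179, 227 and 239 counts in the SDS22-degron libraries. The ratio of the summed, depth-adjusted counts was 191, with an exact 95% interval of 65.0 to 928 that covers counting error only. KRTAP3-1, a hair keratin-associated protein gene, was at 0.0844, 0 and 0.330 CPM in parental and 11.6, 12.9 and 17.7 CPM in SDS22-degron libraries, and the related KRTAP2-3 at 0.929, 1.56 and 1.81 CPM and 12.2, 14.7 and 21.7 CPM (3.48). Genes of this family resemble each other, so that reads may be shared between its copies. LINC01468, a long non-coding RNA gene, was at 0.844, 0.782 and 0.906 CPM and 19.4, 20.8 and 21.9 CPM (4.6, standard error 0.169).

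Transcription factors and secreted signals were also among the highest 12, of which 10 are described. RUNX2, the master factor of bone-forming cells, was at 3.21, 4.07 and 4.37 CPM in parental and 31.8, 37.2 and 38.8 CPM in SDS22-degron libraries (3.21, standard error 0.135). Its counts may include reads of SUPT3H, which overlaps it on the other strand. GLIS3, a zinc finger factor, was at 1.94, 2.35 and 1.57 CPM against 19, 22.4 and 23.8 CPM (3.47), and ZBTB18, a transcriptional repressor, at 2.11, 1.88 and 2.39 CPM against 12, 13.3 and 12.6 CPM (2.57). BMP4, a ligand of the bone morphogenetic protein pathway, was at 76.3, 127 and 133 CPM in parental and 445, 488 and 529 CPM in SDS22-degron libraries (2.12). DKK1, a secreted inhibitor of Wnt signalling, was at 121, 121 and 141 CPM and 635, 621 and 633 CPM (2.3, adjusted p = 8.85e-12 in edgeR). Both ligand genes were thus about 4-fold to 5-fold higher.

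PXDN, a peroxidase that cross-links collagen IV, was at 10.6, 13.4 and 11.7 CPM in parental and 60.5, 63.1 and 67.3 CPM in SDS22-degron libraries (2.42). The smallest absolute log2 fold change among the 24 genes was 2.02, and they were taken from 231 DEGs that met the same conditions on level and overlap.

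**Figure D1:**
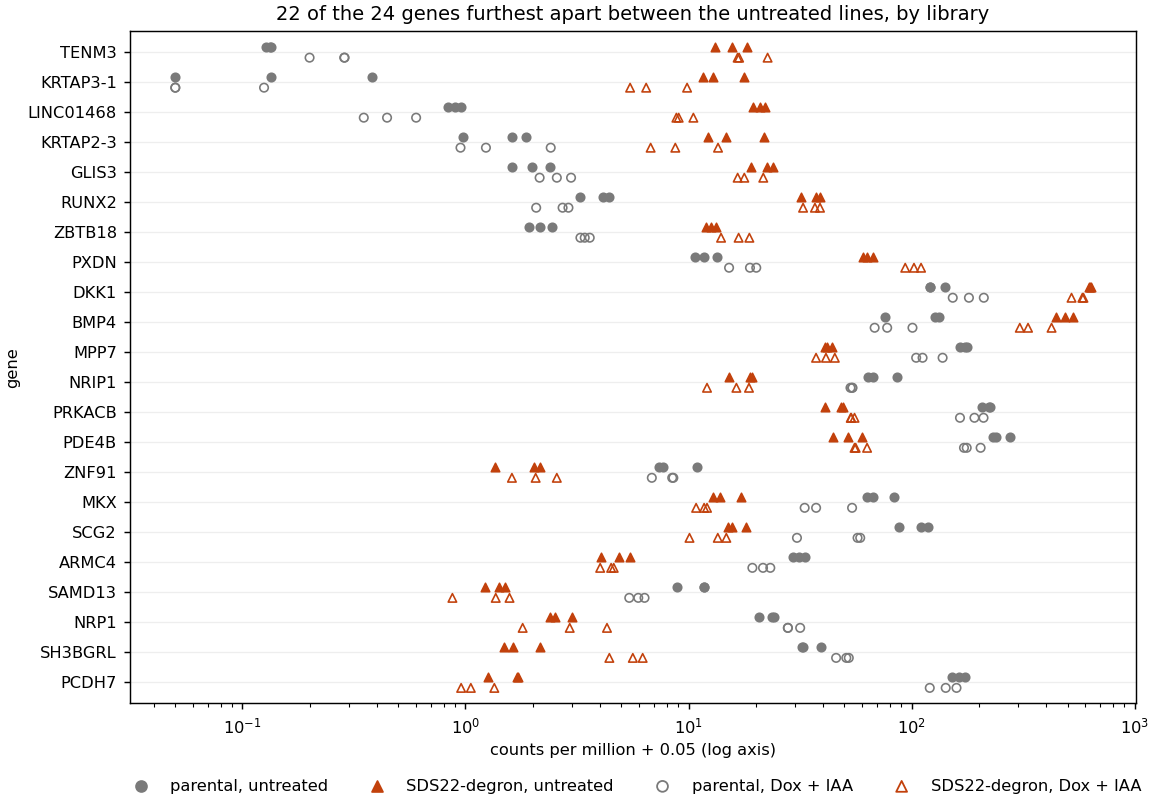
CPM plus 0.05 on a log axis for 22 of the 24 genes (10 of the highest and 12 lowest), one point per library, with filled symbols for untreated and open symbols for Dox/IAA-treated cultures, circles for parental and triangles for SDS22-degron cells. Within each gene the 3 filled circles and 3 filled triangles do not overlap, as the rule for choosing the genes required. The open symbols, whose overlap the rule did not use, lie apart in the same direction.

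A few genes were close to silent in one line. With at most 3 counts in every library of one line and at least 30 in every library of the other, 2 genes were near silent in parental cells and 0 in SDS22-degron cells. The 2 were TENM3 and CAPN6, a calpain without protease activity, which had 0, 1 and 1 counts in parental and 30, 40 and 37 counts in SDS22-degron libraries (ratio 47.5, exact 95% interval 12.8 to 397). Among the DEGs, 4 had no count in any parental library. With a floor of 3 counts over the group, the voltage-gated sodium channel gene SCN9A was at least 28.9-fold higher in SDS22-degron cells, MYRIP, a linker of Rab27 and myosin, at least 20-fold, the proteoglycan gene SPOCK1 at least 14.3-fold and JAKMIP2 at least 5.95-fold.

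Some DEGs lay side by side on a chromosome. Runs of at least 3 tested neighbours that were DEGs in the same direction were sought after the values had been seen, and 5 were found. One was lower in SDS22-degron cells, formed on chromosome 10 by MKX, ARMC4 and MPP7 (27672875 to 28334486 on GRCh38), and the other 4 were higher. On chromosome 17, KRTAP3-1, KRTAP2-2, KRTAP2-3 and KRT32 formed a run of keratin genes and their partners. On chromosome 6 the run was HLA-DOA, HLA-DPA1 and HLA-DPB1, of the major histocompatibility complex (MHC) class II region. On chromosome 2, COBLL1, SCN2A and GALNT3 formed a run, and the log2 fold change of SCN2A, a sodium channel gene, was 2.29.

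Whether these differences belong to the lines rather than to these 6 cultures was asked in the treated libraries. Their levels do not enter the untreated log2 fold changes, although the calls share a filter, a normalization and an estimate of the spread. Of the 430 genes higher in untreated SDS22-degron cells, 413 (96.0%) were also above 0 in the treated lines and 339 (78.8%) passed in the same direction, against 21.8% of all tested genes. Of the 196 lower genes, 184 (93.9%) kept the sign and 131 (66.8%) passed in the same direction, against 23.1% of all tested genes. The median log2 fold change of the higher genes was 1.42 in the untreated and 1.13 in the treated lines, and that of the lower genes -1.34 and -0.96. A choice by large untreated values can alone give smaller values in other libraries, and its part in these medians was not tested. All 24 genes with the largest differences passed in the same direction and did not overlap in the treated libraries. In PCDH7 the treated libraries held 142, 121 and 159 CPM in parental and 1.30, 1.01 and 0.906 CPM in SDS22-degron cells, and in TENM3 0.150, 0.237 and 0.236 CPM and 16.6, 16.8 and 22.6 CPM. The treated cultures are of the same lines, so they repeat the comparison of these lines and not of independently made ones.

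The difference itself changed with treatment in a minority of genes. Tested as an interaction of line and treatment, 59 of the 430 higher DEGs passed, a share close to the 14.4% of all tested genes. Of the 196 lower DEGs, 44 passed, a larger share. DEGs were chosen by their untreated values, which also enter the interaction, so the choice alone can raise these shares. That part was not tested. Passing in the opposite direction in the treated lines was seen in 3 DEGs, which are named here after their values were seen. ELF3, an epithelial transcription factor, was at 67.1, 51.4 and 69.9 CPM in untreated parental and 28.8, 28.6 and 29.2 CPM in untreated SDS22-degron libraries (-1.12), while the treated libraries held 32.8, 24.2 and 33.5 CPM and 37.1, 43.1 and 41.4 CPM (0.42, interaction adjusted p = 2.76e-05 in edgeR). The levels in treated parental libraries were thus near those of untreated SDS22-degron libraries. KLF3-AS1 (-1.40 and 1.08) and AC098820.3 (1.09 and -1.58) are non-coding RNA genes with under 2 CPM in every library. AC098820.3 was close to the threshold (adjusted p = 0.0467 in edgeR), and its call in the untreated lines held without SDS22-degron replicate 3 (1.25) but was lost without any other of the untreated libraries (log2 fold changes of 0.86 to 1.34) and without most of the treated ones. The rule named 5 DEGs by the largest loss of the fitted difference in the treated lines. One was MYRIP, at 0, 0 and 0 CPM in untreated parental and 1.53, 1.24 and 2.13 CPM in untreated SDS22-degron libraries, and at 0.450, 0.0790 and 0.236 CPM and 2.82, 2.87 and 3.05 CPM after treatment. Its untreated parental level is at 0, so its untreated difference is known only as a lower bound, and whether it shrank cannot be said. Another was GBP2, an interferon-induced GTPase with 19 counts over the parental and 2 over the SDS22-degron libraries (ratio 10.7, exact 95% interval 2.58 to 94.8). The non-coding RNA gene B3GALT5-AS1 (ratio 17.3, exact 95% interval 4.48 to 148), AC098820.3 and DDIT3 complete the 5. The interaction passed for GBP2 and AC098820.3 (adjusted p-values of 0.0380 and 0.00700 in edgeR) and did not pass for MYRIP, B3GALT5-AS1 and DDIT3.

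**Figure D2:**
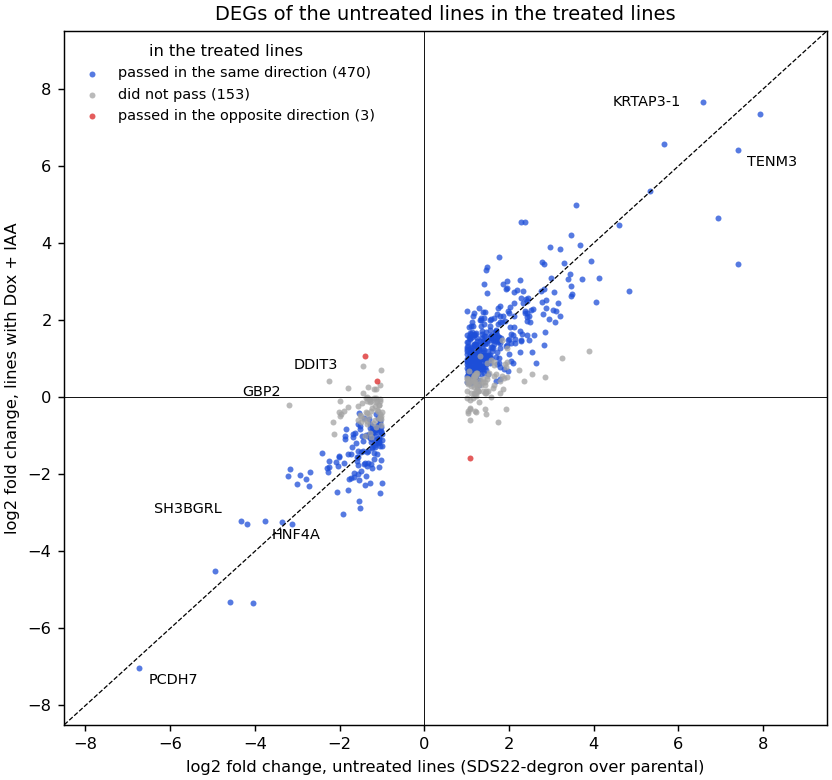
Log2 fold changes (SDS22-degron over parental) of the 626 DEGs of the untreated lines, in the untreated lines on the horizontal and in the Dox/IAA-treated lines on the vertical axis. Points near the dashed line have equal values, and 470 genes passed in the same direction in the treated lines, 153 did not pass and 3 passed in the opposite direction.

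On chromosomes 3 and 16 most genes had values below 0. The median log2 fold change was -0.27 over the 939 tested genes of chromosome 3 and -0.30 over the 726 of chromosome 16, against 0.0034 over all tested genes. On chromosome 3, 420 genes were lower and 31 higher, and on chromosome 16, 332 were lower and 27 higher, so that these 2 chromosomes held 752 (30.1%) of the 2500 lower genes. On all other chromosomes, 11.7% of the tested genes were lower and 14.3% higher, but not evenly. On chromosome 1, 460 genes (27.7%) were lower and 7.59% higher, and 25.6% of the genes of chromosome 8 and 19.5% of those of chromosome 15 were lower. The values below 0 ran along both chromosomes. Of windows of 10 Mb with at least 20 tested genes, 18 of 18 on chromosome 3 had a median below 0 (-0.39 to -0.18), and so had 8 of 8 on chromosome 16 (-0.43 to -0.11). In each of the 3 parental libraries the median deviation of the genes of chromosome 16 was between 0.13 and 0.16, and in each SDS22-degron library between -0.15 and -0.13. The treated lines, which share no library with these, had medians of -0.26 for chromosome 3 and -0.31 for chromosome 16. Genes on 1 chromosome are not independent, and no p is given. Smaller medians were seen for chromosome 1 (-0.13), chromosome 8 (-0.11) and chromosome 15 (-0.10). On chromosomes 1 and 8 the values were not even along the chromosome. The window medians of chromosome 1 up to position 120000000 were all below 0 (-0.35 to -0.12), and later ones lay between -0.14 and 0.084. Those of chromosome 8 lay between -0.27 and -0.14 from position 70000001 on, and between -0.076 and 0.037 before it. Of the 21 tested mitochondrial genes, 11 were higher and none lower by the same test (median 0.41, and 0.14 in the treated lines).

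**Figure D3:**
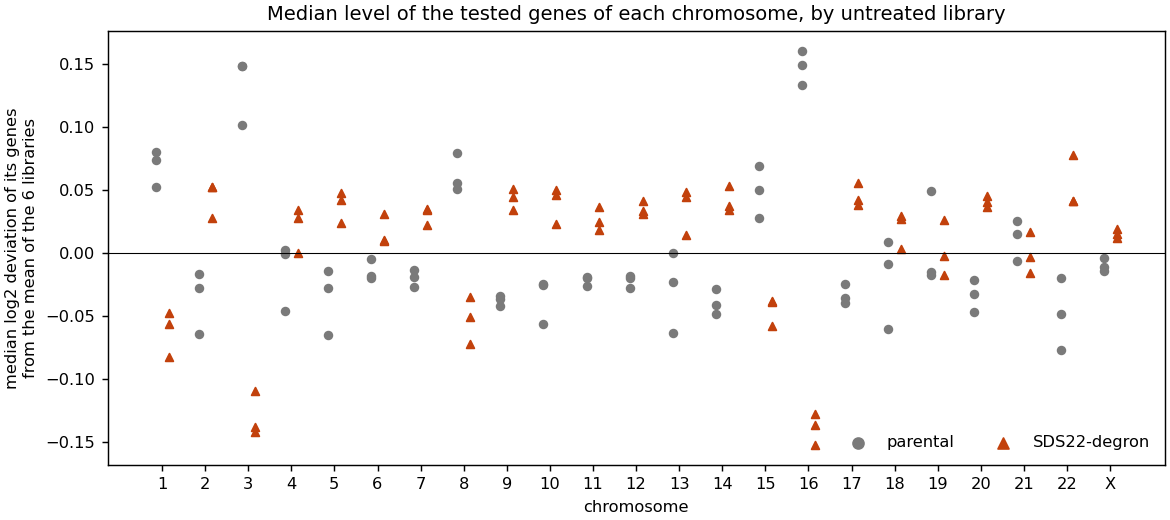
Median deviation (log2 CPM minus the mean of the 6 untreated libraries) of the tested genes of each chromosome, one point per library, circles for parental and triangles for SDS22-degron. All 3 parental points lie above 0 and all 3 SDS22-degron points below 0 on chromosomes 1, 3, 8, 15 and 16, and the gap is widest on 3 and 16.

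Lists of genes of known processes were then counted, each against the 13.2% of all tested genes that were higher and the 15% that were lower. Adhesion and guidance genes that passed did so in both directions. Of 32 tested genes of cadherins and junctions, 13 were lower and 4 higher, against 4 lower and 17 higher in the treated lines (medians -0.13 and 0.21), with the adhesion receptor gene NECTIN3 (1.29) at one end and PCDH7 and the desmosomal cadherin gene DSC3 (-1.14) at the other. Of 42 genes of integrins and matrix, 13 were higher and 9 lower. THBS1 (thrombospondin 1) was at 11.6, 15.9 and 14.7 CPM in parental and 40.6, 50.3 and 75.8 CPM in SDS22-degron libraries (1.98), and SULF2, which trims sulfate from heparan sulfate, at 8.36, 10.5 and 11.6 CPM against 39.5, 40.1 and 39.1 CPM (1.96). ITGA2, a collagen-binding integrin subunit, was lower, at 154, 144 and 190.2 CPM against 82.4, 70.3 and 68.2 CPM (-1.14). Of 49 axon guidance genes, 11 were higher and 11 lower, 7 without parental replicate 3. The semaphorin receptor PLXNA2 (3.06) and the guidance cue NTN1 (1.7) were higher, while NRP1 was lower. NTN1 was at 5.40, 4.53 and 4.70 CPM in parental and 14.9, 15.9 and 16.7 CPM in SDS22-degron libraries, with a log2 difference that was smaller in the treated lines (0.43, interaction adjusted p = 4.1e-05 in edgeR). Over the 3 lists the median log2 fold changes were -0.13, -0.018 and 0.027.

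Among markers of colon epithelium, HNF4A, a transcription factor of gut and liver epithelium, was at 7.34, 7.11 and 7.66 CPM in parental and at 0.729, 0.550 and 0.304 CPM in SDS22-degron libraries (-3.77, standard error 0.238, adjusted p = 2.56e-09 in edgeR). The SDS22-degron libraries thus held under 1 CPM each, and the treated lines gave -3.21. KRT20, a keratin of differentiated colon cells, was higher (1.38). Of the 13 tested genes of this list, 5 were lower and 2 higher in the untreated lines, and 1 was lower and 7 higher in the treated lines (median 0.41). Of 9 mesenchymal markers, 3 were lower and 3 higher. The DEGs were TWIST1 (-1.32), which was lower, and SNAI2 and the matrix protein gene SPARC (1.47), which were higher. S100A4 (-0.78) was lower. In the list of markers of other cell types, 1 of 4 tested genes was higher (ACTA2, 0.78, at 4.73, 4.85 and 5.93 CPM and 9.26, 8.25 and 9.11 CPM), and its 3 other genes did not pass.

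Of 20 Wnt targets, 8 were higher and 2 lower (median 0.29). CCND1, the G1 cyclin, was at 796, 905 and 893 CPM in parental and 1312, 1444 and 1479 CPM in SDS22-degron libraries (0.71), while TCF7L2, the transcription factor of this pathway in the gut, was lower (-0.71). Of 42 genes of the BMP and TGF-beta pathway, 18 were higher and 9 lower (median 0.22), and 8 of the higher ones were DEGs. These were the ligands BMP4, BMP6, TGFB2 and INHBB, the secreted BMP antagonists NOG and CHRD, the intracellular inhibitor SMAD7 and the target ID2. ID2 was at 69.6, 65 and 67.1 CPM against 157, 151 and 139 CPM and passed the test, and TGFB2 at 0.591, 0.313 and 0.330 CPM against 2.19, 2.89 and 3.80 CPM (2.82). The list thus holds ligands and their inhibitors among the higher genes. Of 22 YAP and TEAD targets, 10 were higher and 2 lower (median 0.27), with the coagulation factor gene F3 (1.41) higher and NT5E (-0.61) lower.

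Of 37 genes downstream of RAS and ERK, 12 were lower and 7 higher (median -0.21), and 7 were lower without SDS22-degron replicate 1 or without replicate 2. The 3 DEGs of this list, CXCL8, EPHA4 and SPRY1, were all higher. ETV5, a transcription factor that follows ERK activity, was at 169, 143 and 153 CPM in parental and 80.1, 82.9 and 80.8 CPM in SDS22-degron libraries (-0.93), and the AP-1 gene FOSL2 at 56.6, 58.6 and 61.8 CPM against 29.96, 32.3 and 37 CPM (-0.83). Of 20 genes of the TNF superfamily, 9 were higher and 2 lower (median 0.27). The ligand TNFSF18 (1.78) and the neurotrophin receptor NGFR (1.66) were DEGs, and the receptor TNFRSF21 was lower (-1.0). In the list of RUNX factors and partners, 4 of 9 were higher and 2 lower. RUNX2 and the corepressor TLE1 (1.19) were higher, and CBFB, the shared partner of RUNX factors and a gene of chromosome 16, was lower (-0.77).

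Among the lists with at least 8 tested members, targets of p53 had the largest share of higher members. Of 31 tested, 18 were higher and 3 lower (median 0.34), or 17 higher and none lower without parental replicate 1 by the same test. CDKN1A, the cell-cycle inhibitor p21, was at 254, 272 and 263 CPM in parental and 445, 516 and 551 CPM in SDS22-degron libraries (0.94, standard error 0.0837). PLK2 (1.36) and TIGAR (0.82), both also known as p53 targets, had no overlap between the lines, with 147, 142 and 158 CPM against 376, 371 and 401 CPM for PLK2. The larger value of CDKN1A in the treated lines (1.59) differed from the untreated one by the interaction test (adjusted p = 0.00110 in edgeR).

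Among immune genes, those of MHC class II were higher. Of 32 antigen presentation genes, 13 were higher and 4 lower (median 0.25), and the 7 DEGs were CD74 and 6 class II genes. HLA-DRB1 was at 1.10, 0.782 and 1.07 CPM in parental and 4.45, 5.09 and 4.55 CPM in SDS22-degron libraries (2.25), and HLA-DRA at 1.44, 2.58 and 2.31 CPM against 8.89, 9.28 and 8.96 CPM (2.09). The class I gene HLA-B was at 150.3, 136 and 159 CPM and 233, 240.0 and 252 CPM (0.70). HLA genes resemble each other, and reads may be split between them. Of 41 interferon response genes, 6 were higher and 7 lower (median 0.0048), with IFIT1 (1.02) higher and DDX60 (-0.63) lower.

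None of 71 cell division genes was a DEG, and 12 were higher and 6 lower (median 0.053), although 4 were higher without parental replicate 1, 20 without parental replicate 2 and 7 without any 1 of the other 4 untreated libraries, and 2 or 3 were lower without SDS22-degron replicate 1, 2 or 3, parental replicate 2 or treated SDS22-degron replicate 3. The mitotic kinesin genes KIF18A (-0.51) and KIF20B (0.43) and the phosphatase gene CDC25B (-0.58) had the smallest p. Of 65 DNA replication genes, 12 were lower and 3 higher (median -0.11), with MCM2, a subunit of the replicative helicase, at 318, 341 and 315 CPM in parental and 197, 193 and 197 CPM in SDS22-degron libraries (-0.73). MCM2 and RFC4 (-0.57) lie on chromosome 3 and CDT1 (-0.54) on chromosome 16. Of the 58 members on other chromosomes, 7 were lower and 3 higher. Of 14 tested histone genes, 7 were higher and none lower in the same test (median 0.79), HIST2H2BE (1.69) and HIST1H2AC (0.98) among them, in libraries that were made from poly-A selected RNA.

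**Figure D4:**
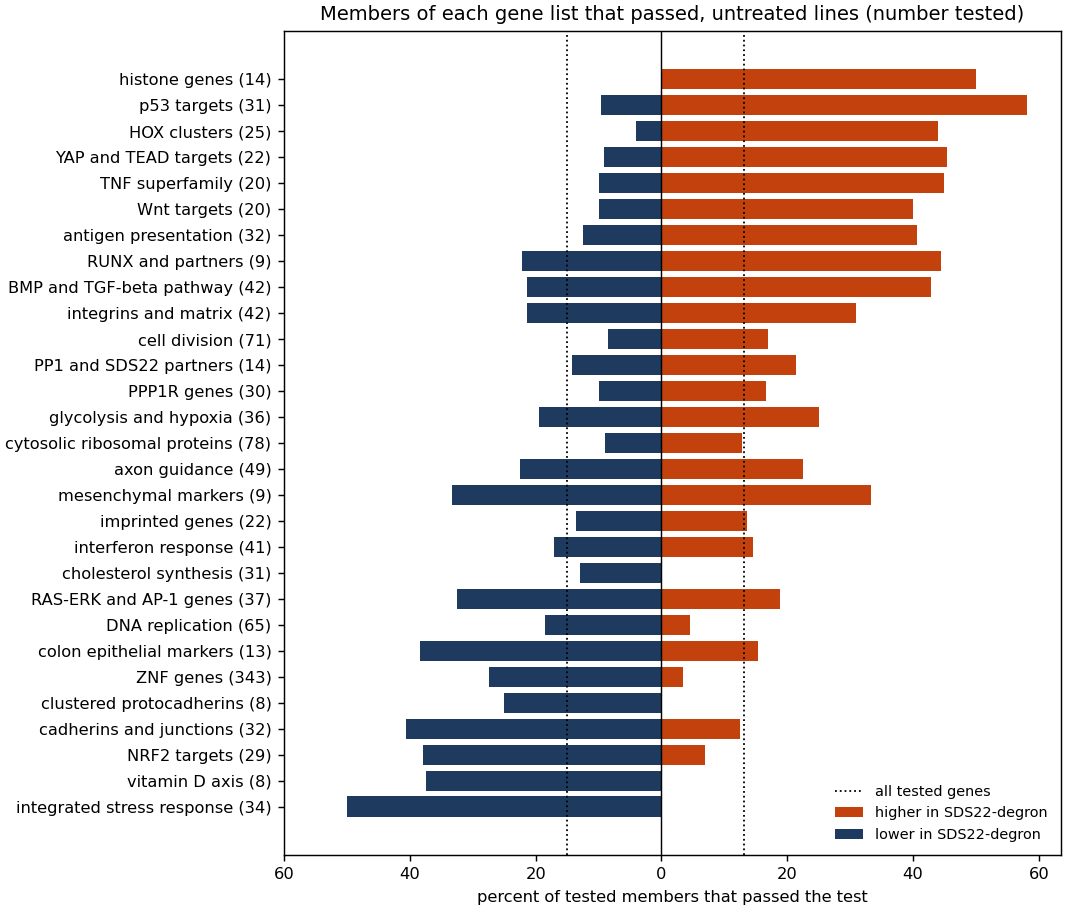
Percent of the tested members of each list with at least 8 tested members that passed the test in the untreated lines, higher in SDS22-degron to the right and lower to the left, with the share of all tested genes as dotted lines (13.2% and 15%). Targets of p53 and histone genes reach furthest to the right, and genes of the integrated stress response to the left, with 17 of 34 lower, or 11 of 34 without parental replicate 1.

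HOX genes that passed were mostly higher, and ZNF genes that passed were mostly lower. Of 25 tested genes of the HOX clusters, which set positional identity, 11 were higher and 1 lower (median 0.43). The cluster of chromosome 17 held 8 of the higher genes among 9 tested, while the 9 tested genes of the cluster of chromosome 7 held none of the higher ones. HOXB6 was at 32.2, 30.3 and 40.9 CPM in parental and 68.4, 66.6 and 64.1 CPM in SDS22-degron libraries (0.95), and HOXB5 (0.95) and HOXB9 (0.81) were also higher, although neighbouring genes of the cluster overlap on the same strand. Of 343 genes with a ZNF symbol, 94 were lower and 12 higher (median -0.14), and the 16 DEGs among them were all lower. The strongest of these were ZNF850 (-3.35), ZNF91 and ZNF134 (-1.34) by their p. Chromosome 19, whose median over all its genes was 0.00033, held 145 tested ZNF genes, of which 41 were lower and 0 higher in the same edgeR test. Outside chromosomes 3 and 16, 72 of 302 were lower and 12 higher. In the treated lines, 86 of the 343 ZNF genes were lower and 46 higher (median -0.061). Of all tested genes, 23.1% were lower and 21.8% higher there, so the lower share was close to that of all genes.

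Of 29 NRF2 targets, 11 were lower and 2 higher (median -0.20), led by the transporter genes ABCC3 (-1.12) and ABCC1 (-0.65), the latter on chromosome 16. All 4 tested metallothionein genes, which bind metal ions, lie on chromosome 16 and had values of -0.75 to -0.17, and 2 of them, MT2A (-0.75) and MT1E (-0.67), were lower. Their copies resemble each other, and the part of the chromosome-wide difference in these values was not tested. Of 36 genes of glycolysis and hypoxia, 9 were higher (5 without SDS22-degron replicate 2) and 7 lower (4 without parental replicate 2). HK1 (0.50) and EGLN3 (1.11) were higher and NDRG1 (-0.63) lower. Of 31 genes of cholesterol synthesis, 4 were lower and none higher in this test (1 and 1 without parental replicate 1), with FASN (-0.48) among them. Of 8 tested genes of the vitamin D axis, 3 were lower. CYP24A1, the enzyme that degrades active vitamin D, was at 281, 229 and 326 CPM in parental and 57.2, 66.1 and 83.5 CPM in SDS22-degron libraries (-2.01).

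Several lists had other counts in the treated lines, where 21.8% of all tested genes were higher and 23.1% lower. Cell division genes numbered 0 higher and 69 lower by edgeR's test there, DNA replication genes 1 and 60, cholesterol synthesis genes 14 and 1, interferon response genes 25 and 3, genes of the integrated stress response 7 and 8, and ribosomal protein genes 52 and 0.

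Of 78 genes of cytosolic ribosomal proteins, 10 were higher and 7 lower. The higher ones numbered 5 without SDS22-degron replicate 3, and 16 to 18 without treated SDS22-degron replicate 3 or treated parental replicate 1 or 2. The lower ones numbered 3 or 4 without SDS22-degron replicate 1 or 2 or parental replicate 1 or 3. RPS27L (0.47) and RPS27A (0.32) were higher and RPL35A (-0.31) lower. Of 22 imprinted genes, 3 were higher and 3 lower, with IGF2 at 0.88 and ZNF597 at -1.17. Of 8 tested clustered protocadherins, 2 were lower, PCDHGA10 (-0.55) and PCDHAC1 (-0.65), and of 3 tested cancer-testis antigens, 1 was higher, MAGEA3 (0.24).

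Parental replicate 1 weighed on the values of the integrated stress response, the programme that cells start when protein folding or amino acid supply is disturbed. Of 34 tested genes, 17 were lower and 0 higher in SDS22-degron cells by edgeR's quasi-likelihood test (median -0.23), and without parental replicate 1 the counts were 11 and 2 (median -0.081). In parental replicate 1, 29 of the 34 genes had their highest value of the 6 libraries, against 19.1% of all tested genes. DDIT3, the stress-induced factor CHOP, was at 207, 13.9 and 20.4 CPM in parental and 17.9, 17.8 and 15.2 CPM in SDS22-degron libraries, so that parental replicates 2 and 3 lay within or near the range of the SDS22-degron libraries. Its log2 fold change of -2.24 (adjusted p = 0.0145 in edgeR) became -0.0026 (adjusted p = 0.996) without parental replicate 1. Without SDS22-degron replicate 3 its adjusted p was 0.0546. HSPA5, the main chaperone of the endoplasmic reticulum, was at 2396, 928 and 942 CPM in the parental libraries and at 899, 903 and 945 CPM in the SDS22-degron libraries. Over all tested genes, 22 (0.132%) were more than 2-fold above the mean of parental replicates 2 and 3 in parental replicate 1, with 1 CPM added to both.

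A part of this list differed in every parental library. PHGDH, the first enzyme of serine synthesis, was at 194, 184 and 187 CPM in parental and 80.9, 73 and 79.9 CPM in SDS22-degron libraries (-1.28, and -1.25 without parental replicate 1). SLC7A11, the cystine transporter, was at 213, 150.3 and 138 CPM against 89.2, 85.8 and 84.9 CPM (-0.95, and -0.73 without that library), and AARS, an alanyl-tRNA synthetase gene on chromosome 16, at 439, 325 and 385 CPM against 245, 232 and 236 CPM (-0.69, and -0.57). ATF3, a factor of the same response, did not pass over all libraries (0.67, adjusted p = 0.0730 in edgeR) and was higher without parental replicate 1 (1.33, adjusted p = 5.59e-05). It was at 44, 16.1 and 16.1 CPM in parental and at 35.6, 41.8 and 43.2 CPM in SDS22-degron libraries.

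**Figure D5:**
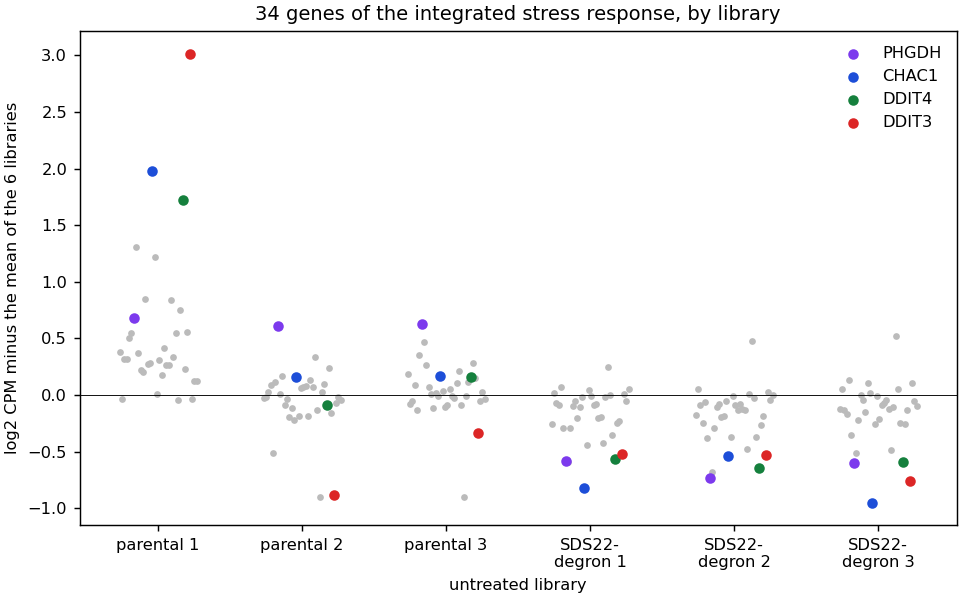
Log2 CPM of the 34 tested genes of the integrated stress response minus the mean of the 6 untreated libraries, one point per gene and library, with 4 genes in colour. In parental replicate 1 the points of DDIT3, CHAC1 and DDIT4 lie far above those of the other libraries, while PHGDH is at a like height in all 3 parental libraries.

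The regulatory partners of PP1 were counted last. Of 14 PP1 and SDS22 partners, 3 were higher and 2 lower, none of them a DEG by its fold change, and without parental replicate 1 the counts were 1 and 2. PPP1R10, a nuclear targeting subunit of PP1, was at 163, 163 and 191 CPM in parental and 123, 123 and 131 CPM in SDS22-degron libraries (-0.46, standard error 0.0801). PPP1R8, the nuclear inhibitor NIPP1, was lower too (-0.33), and UBXN2A was higher (0.37). Of 30 genes with a PPP1R symbol, 5 were higher and 3 lower, or 3 higher without SDS22-degron replicate 2 or without parental replicate 2. The DEGs were the inhibitor genes PPP1R14C, at 6.75, 9.23 and 6.59 CPM against 23.9, 26.1 and 27.3 CPM (1.77), and PPP1R1A, at 0.338, 0.0782 and 0.247 CPM against 2.04, 1.99 and 2.28 CPM (3.21), and the glycogen-targeting subunit gene PPP1R3F. Their libraries did not overlap between the lines for PPP1R14C and PPP1R1A, and both were also higher in the treated lines (1.01 and 2.11).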

How the data were processed

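RNA was measured with a stranded poly-A kit and single 75-base reads. The authors deposited whole-number read counts per gene, with gene positions on GRCh38 and a GC percent per gene. The strand setting and annotation release of the counting are not given in the sources used here. Counts were analysed with edgeR 4.0.16 in R 4.3.3 (filterByExpr with a minimum count of 10, TMM normalization, quasi-likelihood F test with Benjamini-Hochberg adjustment over 16657 genes). All 12 libraries were fitted as 4 groups, so that they share one estimate of the spread. A gene passed at an adjusted p under 0.05 and was a DEG with an absolute log2 fold change above 1 as well. On simulated counts, 200 of 200 genes changed by an absolute log2 fold change of 1.5 were recovered. These were planted only in genes with ample counts and with the fitted spread, so recovery of genes with few counts was not tested. Intervals of ratios of counts and floors (3 counts) cover counting error only.

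The members and the gene lists were chosen with earlier results of these data known. Named genes were the 12 highest and 12 lowest DEGs without overlap, with a mean of at least 5 CPM and a symbol without a dot and off chromosome Y, PPP1R7 and the PP1 catalytic genes, the 3 members of each list with the smallest p, neighbours of PPP1R7 that passed and the 5 DEGs with the largest loss of the difference after treatment. Some genes that this rule names are not reported here. Other genes named were chosen after their values were seen. Alternatives were DESeq2 1.42.0, other normalizations, filters and tests, a replicate block, a GC correction and leaving out each library.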

Additional observations from a re-analysis of the deposited data

Results flagged for a closer look

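Of the 121 genes named by the rule, 40 had a difference between the lines that was itself different after treatment. The test was edgeR's interaction of line and treatment over all tested genes (adjusted p from 2.76e-05 to 0.0435), which 14.4% of all tested genes passed. Most named genes were chosen by their untreated values, which also enter the interaction, so the choice alone can raise the count. In brackets is the treated minus the untreated log2 difference. Of the 40 genes, 18 kept their sign with a smaller difference in the treated lines. Those that were lower in SDS22-degron cells were SH3BGRL (1.13), PDE4B (0.59), PRKACB (0.44), MPP7 (0.51), GBP2 (2.97), ITGA2 (0.71), ETV5 (0.44), FOSL2 (0.57), PHGDH (0.49), ABCC3 (0.79), RXRB (0.44) and TNFRSF21 (0.51). Those that were higher were DKK1 (-0.67), NECTIN3 (-0.41), NTN1 (-1.27), F3 (-0.77), HIST1H1C (-0.86) and PPP1R14C (-0.76).

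A larger difference of the same sign in the treated lines was found for 16 genes. Those lower in SDS22-degron cells were PPP1R10 (-0.52), NT5E (-0.53), KIF18A (-0.53), MCM2 (-0.83), CDT1 (-0.65), RFC4 (-1.04), MT2A (-0.34) and MT1E (-0.40), and those higher were SULF2 (1.07), SPARC (1.82), ACTA2 (0.88), CDKN1A (0.65), HLA-B (0.51), TLE1 (0.46), TNFSF18 (1.86) and HOXB9 (0.77). The sign of the value changed for 6 genes, AC098820.3 (-2.67), ELF3 (1.54), DDX60 (0.70), KIF20B (-1.3), MAGEB2 (-0.28) and PCDHGA10 (0.96). The values of this group are fitted values, which need not have passed in both treatments. For DDIT3 and MYRIP the interaction did not pass.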

How the results depend on the processing

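Of 2778 values of single genes under the alternatives, 2708 kept their direction and side of the threshold, 45 (of 9 genes) lost a call, 17 gained one and 8 changed sign, and the 24 genes with the largest differences kept their calls in 552 of 552 values. Where a value below differs from the report, the cause was not tested. With glmTreat the DEGs numbered 90 higher and 44 lower. Without 1 library, DEGs numbered 403 to 463 higher and 184 to 221 lower, and genes that passed 1607 to 2425 and 1898 to 2658. The share of DEGs that passed in the same direction after treatment was 83.6% of the higher ones with a filter of 1 CPM, 71.1% and 59.8% without a filter, and 73.0% to 80.6% and 58.7% to 71.7% without 1 library. The median of chromosome 3 was -0.24 by library size only and by upper quartile, and -0.29 to -0.24 without 1 library. That of chromosome 16 was -0.32 with the GC correction, -0.27 by library size only, -0.26 by upper quartile and -0.31 to -0.27 without 1 library.

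Lower cell division genes numbered 3 by library size and by upper quartile, and without 1 library 4 to 20 were higher and 2 to 9 lower. Ribosomal protein genes numbered 16 higher by library size, 18 higher and 4 lower by upper quartile, 19 higher with only the 6 untreated libraries, and 5 to 18 higher and 3 to 8 lower without 1 library. Without 1 library, lower genes numbered 7 to 12 of axon guidance, 7 to 16 of RAS and ERK, 4 to 7 of glycolysis (5 to 9 higher) and 11 to 18 of the integrated stress response, and 3 to 5 PPP1R genes were higher. PPP1R7 changed sign with the GC correction (-0.029), without a filter (-0.00061), and without SDS22-degron replicate 2 (-0.017) or 3 (-0.018) or parental replicate 1 (-0.038), and reached at most 0.099 without 1 library. PPP1CC changed sign without SDS22-degron replicate 2 (-0.0020) or parental replicate 3 (-0.034), and reached at most 0.13 without 1 library.

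Same-numbered libraries deviated from their group means with correlations of 0.058, 0.098 and 0.118, so the replicate numbers were not taken to pair them, although each library correlated best with its own number. With the replicate block, 2550 genes passed higher and 2832 lower, 437 and 202 were DEGs, and 19 ribosomal protein genes were higher. With the block and the GC correction together, 22 DNA replication genes were lower, the median of chromosome 16 was -0.32 and PPP1R7 was at -0.028.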
